A study of Homo sapiens with 12 samples.

Results

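Fibroblast growth factors (FGFs) and their receptors were followed in 2 human cancer cell lines treated with SWTX-143, a small molecule that irreversibly blocks TEAD, the DNA-binding partner of the Hippo effectors YAP and TAZ. The members were the ligands FGF1 and FGF2, the receptor tyrosine kinases FGFR1, FGFR2, FGFR3 and FGFR4, and the kinase-lacking receptor FGFRL1. They were picked by symbol, and all 7 were found among the 27064 gene symbols that the count tables of both lines hold. Their response to SWTX-143 was known when they were picked (FGFR2 in ACHN, and FGF1 and FGF2 in H226, stood out), so their values are given as a description with no p-value. Where a member is said to pass or miss a threshold, this too is a description and no test of that member.

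The 12 libraries fell into 4 groups of 3: ACHN with DMSO (the vehicle), ACHN with 100 nM SWTX-143, H226 with DMSO, and H226 with 100 nM SWTX-143, each overnight. ACHN is a kidney cancer line and NCI-H226, called H226 here, a mesothelioma line; the submitters describe both as NF2-deficient, meaning that the Hippo pathway is inactive in them. Each line stands for 1 tumour, and nothing in the labels says that the 3 replicates of a group were separate cultures, so errors and p-values cover the spread among these libraries alone, and that spread could be technical. Total counts ran from 10113810 to 11206457 in ACHN and from 9690980 to 11262663 in H226. All 7 mesothelial markers in the list used were above 1 CPM (counts scaled to a library of 1e6 reads) in H226, and 5 of 6 kidney epithelial markers were above 1 CPM in ACHN. Summed leukocyte and endothelial markers stayed at or below 1.32 CPM in every library. In H226 the summed kidney markers lay at 8.68 to 10.3 CPM with DMSO and at 16.4 to 18.4 CPM with SWTX-143, most of it LHX1 (8.02 ± 0.717 and 15.1 ± 0.798 CPM), with CDH16, PAX2 and EMX2 at or near 0. The 4 fibroblast markers summed to 77.4 to 79.1 CPM and 64.3 to 67.5 CPM there, nearly all of it PDGFRB, with COL1A2 at 0. The summed mesothelial markers were 3900 to 4100 CPM and 4310 to 4640 CPM in H226, and 183 to 186 CPM and 150 to 158 CPM in ACHN. The part of these markers in the results was not tested. NF2 itself had 112 ± 0.365 CPM (SD, n = 3) in DMSO-treated ACHN and no count in DMSO-treated H226, where 3 counts would be 0.281 to 0.329 CPM per library. CTGF, a textbook TEAD target, fell by 2.39 ± 0.06 on the log2 scale (± SE) in ACHN and by 2.53 ± 0.08 in H226, with edgeR adjusted p-values of 4.77e-35 and 1.83e-29.

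FGF ligands bind receptor tyrosine kinases together with heparan sulfate, a sulfated sugar chain on cell-surface proteoglycans. Ligand binding pairs the receptors, whose kinases then recruit the adaptor FRS2 and switch on the RAS and ERK cascade, and this cascade raises its own inhibitors such as the Sprouty proteins and DUSP6. FGF1 and FGF2 lack a classical signal peptide and leave the cell by an unconventional route. Epithelial and mesenchymal cells splice FGFR1 to FGFR3 differently, which sets the ligands they bind; gene-level counts do not show this choice. In kidney and in mesothelium, FGF signalling is known for its roles in development and in growth of the tumours that arise there.

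The sequences below show the DNA before starts of the 3 members with the largest changes, because the treatment acts on a DNA-binding factor. They are RefSeq sequence of GRCh38.p14, 5′ to 3′ on the gene's strand, without exon bases, whereas the build named for the counts is hg19. Capitals mark GGAATG, the core of the TEAD motif, or its reverse complement. Of 35116 windows of 250 bases upstream of RefSeq starts, 11.9% hold GGAATG on either strand, and 6.57% hold the AP-1 motif TGANTCA. Counted by gene, in any of its windows, 14.3% of 27305 genes hold GGAATG and 8.06% hold TGANTCA.
FGF1 (chr5:142644302-142644489, minus strand, upstream of a start inside the gene): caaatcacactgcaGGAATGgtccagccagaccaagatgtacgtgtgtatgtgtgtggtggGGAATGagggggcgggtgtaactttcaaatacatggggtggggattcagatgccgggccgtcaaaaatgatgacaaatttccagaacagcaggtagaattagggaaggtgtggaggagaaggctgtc
FGFR2 (chr10:121596646-121596895, minus strand, upstream of a start inside the gene): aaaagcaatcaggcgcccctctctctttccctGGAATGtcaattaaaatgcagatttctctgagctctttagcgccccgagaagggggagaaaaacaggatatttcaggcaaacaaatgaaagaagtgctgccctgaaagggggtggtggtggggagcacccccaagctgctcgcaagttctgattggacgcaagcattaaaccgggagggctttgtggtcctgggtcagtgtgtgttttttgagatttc
FGFR2 (chr10:121531315-121531564, minus strand, upstream of a start inside the gene): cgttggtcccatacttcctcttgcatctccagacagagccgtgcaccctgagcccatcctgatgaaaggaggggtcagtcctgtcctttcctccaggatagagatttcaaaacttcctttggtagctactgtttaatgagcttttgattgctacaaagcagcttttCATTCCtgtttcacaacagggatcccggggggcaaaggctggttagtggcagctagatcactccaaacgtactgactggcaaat
FGF2 (chr4:122826581-122826707, plus strand, upstream of the gene's start): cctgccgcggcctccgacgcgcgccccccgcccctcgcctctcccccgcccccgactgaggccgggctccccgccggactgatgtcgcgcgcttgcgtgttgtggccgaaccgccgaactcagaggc

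Of the 4 FGF1 windows, 1 held GGAATG, with matches 236 and 189 bases before its start, and the same window held TGANTCA 41 bases before its start, past the stretch printed. FGFR2 had 1 match in each of 2 windows out of 5, at 218 bases on the gene's strand and at 84 bases on the other strand. The windows of FGF2, FGFR3, FGFR4 and FGFRL1 held neither motif, and neither did those of FGF5 and FGF18, outside the members. For comparison, the window of CTGF (CCN2 in RefSeq) held 3 GGAATG matches. A match describes the letters in these windows and is no evidence of binding. FGFR1 has no entry in the promoter table. In the GENCODE 29 annotation FGF1 spans chr5:142592178-142698070, FGF2 chr4:122826708-122898236 and FGFR2 chr10:121478334-121598458 (GRCh38).

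FGF2, a broadly acting mitogen that is held in the matrix by heparan sulfate, was lower with SWTX-143 in both lines. In ACHN its level was 349.8, 322 and 332 CPM with DMSO and 269, 275 and 269.8 CPM with SWTX-143. In H226 it was 335, 323 and 301 CPM with DMSO and 202, 189 and 192 CPM with SWTX-143. All 3 treated libraries lay below all 3 DMSO libraries in each line, and the gap was wider in H226. The log2 fold change was -0.30 ± 0.04 in ACHN, a 1.23-fold lower level, and -0.75 ± 0.04 in H226, a 1.68-fold lower level. With DMSO the lines were close to each other, at 335 ± 13.9 and 319 ± 17.1 CPM (SD, n = 3), a log2 difference of -0.06 ± 0.04 (H226 minus ACHN).

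NUDT6, a Nudix hydrolase gene, lies on the opposite strand of the FGF2 locus and shares 804 exon bases with FGF2, or 11.9% of FGF2's exon bases and 12.2% of its own. The strand setting of the counting is not given in the sources used here, so reads from the shared bases cannot be assigned to either gene with certainty. NUDT6 had 21.5 to 23.4 counts per 100 counts of FGF2 in the 12 libraries. Its level was 74.1 ± 3.19 and 62.5 ± 1.91 CPM in ACHN and 70.0 ± 3.10 and 43.8 ± 0.288 CPM in H226 (DMSO, then SWTX-143). NUDT6 fell by 0.25 ± 0.05 in ACHN and by 0.71 ± 0.06 in H226, and the difference between the lines was -0.47 ± 0.08. These values are given with no p-value, because some NUDT6 counts may come from FGF2, whose response was known when it was picked. With both genes summed as 1 locus, an alternative added after seeing the data, the log2 fold change in H226 was -0.74.

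**Figure D1:**
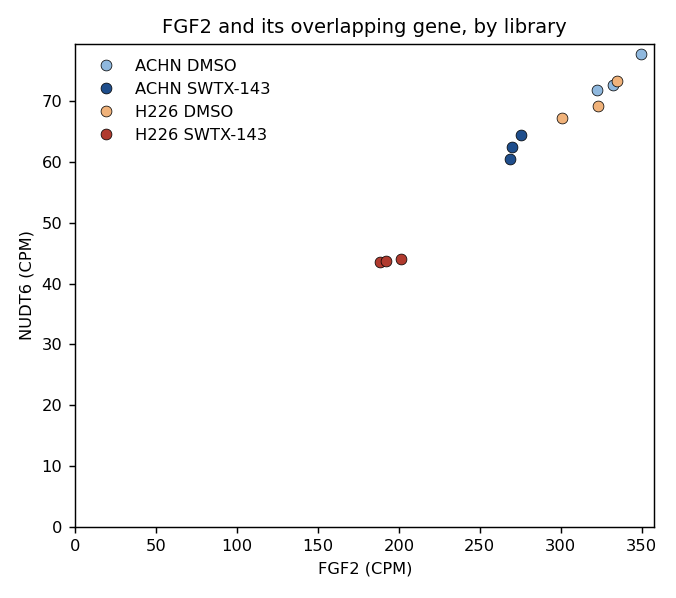
CPM of NUDT6 (vertical axis) against CPM of FGF2 (horizontal axis), 1 point per library, coloured by group. The libraries lie near 1 line, at 21.5 to 23.4 NUDT6 counts per 100 FGF2 counts, with the treated H226 libraries at its low end.

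FGF1, a ligand that binds every FGF receptor, was scarce in both lines. In H226 the DMSO libraries had 26, 35 and 31 counts and the SWTX-143 libraries 13, 11 and 8, or 2.44, 3.33 and 3.40 CPM against 1.30, 1.03 and 0.753 CPM. The highest treated library was below the lowest DMSO library. The log2 fold change was -1.59 ± 0.29, a 3.00-fold lower level, and an interval of 2 SE ran from -2.16 to -1.01. In ACHN the counts were 19, 12 and 10 with DMSO and 6, 8 and 8 with SWTX-143, which was under the filter on low counts, so FGF1 was not tested there. Without that filter its log2 fold change in ACHN was -0.93 ± 0.40, and the 2 sets of libraries did not overlap. With DMSO, FGF1 was 2.46-fold higher in H226 than in ACHN (3.06 ± 0.539 against 1.24 ± 0.451 CPM).

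**Figure D2:**
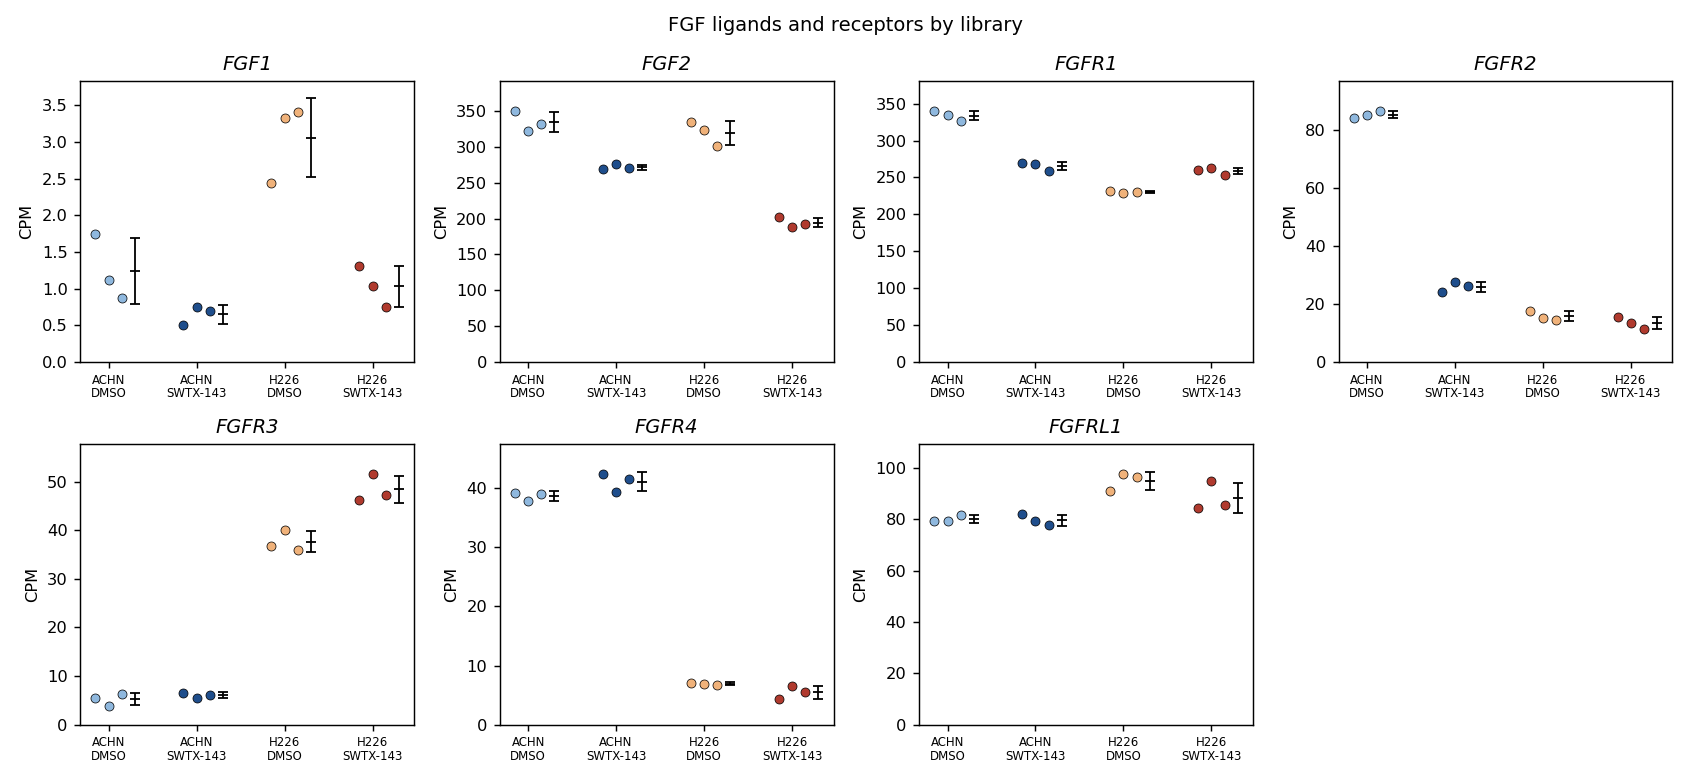
CPM of each of the 7 genes in every library, 1 panel per gene with its own axis starting at 0; points are libraries, and the mark beside them is the group mean with its SD (n = 3). FGFR2 in ACHN and FGF1 and FGF2 in H226 show treated libraries well below the DMSO libraries.

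FGFR2, a receptor best known in epithelia, had the widest change of any member. In ACHN its level was 84.3, 85.1 and 86.5 CPM with DMSO and 24.1, 27.5 and 26.2 CPM with SWTX-143. The treated libraries formed a tight group far below the DMSO libraries. The log2 fold change was -1.72 ± 0.06, a 3.29-fold lower level, and leaving out any 1 library moved it only between -1.76 and -1.67. In H226 the level was low from the start, at 17.6, 15.04 and 14.4 CPM with DMSO and 15.3, 13.5 and 11.2 CPM with SWTX-143. There the groups overlapped, and the log2 fold change of -0.27 ± 0.11 passed the threshold (edgeR adjusted p of 0.05) in 7 of 14 settings, the one reported and 13 alternatives. It was -0.17 without DMSO replicate 1, -0.28 without SWTX-143 replicate 2 and -0.16 without SWTX-143 replicate 3, and passed in none of these. Nor did it pass under DESeq2 or under any other scaling. After treatment ACHN still held more FGFR2 (25.9 ± 1.68 CPM) than DMSO-treated H226 (15.7 ± 1.71 CPM).

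FGFR1, the main receptor of mesenchymal cells, went opposite ways in the lines. In ACHN it was 339.9, 334 and 327 CPM with DMSO and 270.1, 268 and 259 CPM with SWTX-143, a log2 fold change of -0.33 ± 0.04. In H226 it was 231, 229 and 230.3 CPM with DMSO and 259.7, 262 and 254 CPM with SWTX-143, a log2 fold change of 0.14 ± 0.04. No treated library overlapped a DMSO library in either line, so all 3 were lower in ACHN and all 3 higher in H226. The H226 change was 1.10-fold and the ACHN change 1.26-fold. FGFR1 shares 138 exon bases, 0.997% of its own, with LETM2 on the other strand.

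FGFR3, known for restraining cartilage growth and for its mutations in bladder cancer, was mainly an H226 transcript. In H226 it was 36.8, 40.1 and 35.9 CPM with DMSO and 46.3, 51.6 and 47.3 CPM with SWTX-143, with no overlap and a log2 fold change of 0.34 ± 0.07. In ACHN it was 5.41, 3.90 and 6.35 CPM with DMSO and 6.60, 5.40 and 6.07 CPM with SWTX-143. These overlapped, and the log2 fold change of 0.20 ± 0.16 had an interval of -0.12 to 0.53. FGFR3 was thus 7.20-fold higher in H226 than in ACHN with DMSO.

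FGFR4, the receptor for endocrine FGFs in liver, was 5.55-fold lower in H226 than in ACHN with DMSO. In ACHN it was 39.2, 37.8 and 39.1 CPM with DMSO and 42.4, 39.4 and 41.6 CPM with SWTX-143 (log2 fold change 0.09 ± 0.06, interval -0.04 to 0.22). In H226 it was 7.13, 6.95 and 6.70 CPM with DMSO and 4.31, 6.58 and 5.55 CPM with SWTX-143 (log2 fold change -0.36 ± 0.16). Every treated library lay above the DMSO libraries in ACHN and below them in H226, yet neither value passed the threshold.

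FGFRL1, which binds FGFs but has no kinase domain, was the steadiest member. It was 79.3, 79.3 and 81.8 CPM with DMSO and 82.0, 79.2 and 77.7 CPM with SWTX-143 in ACHN, and the groups overlapped (log2 fold change -0.01 ± 0.05, interval -0.11 to 0.09). In H226 it was 91.0, 97.8 and 96.4 CPM with DMSO and 84.3, 95.2 and 85.8 CPM with SWTX-143, where 1 treated library lay within the DMSO range (log2 fold change -0.13 ± 0.05). The H226 value passed in 5 of 14 settings. It was lost under DESeq2, under each other scaling and in the joint fit of both lines. It was also lost without DMSO replicate 2 (-0.11) or 3 (-0.12), and without SWTX-143 replicate 1 (-0.09) or 3 (-0.11).

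**Figure D3:**
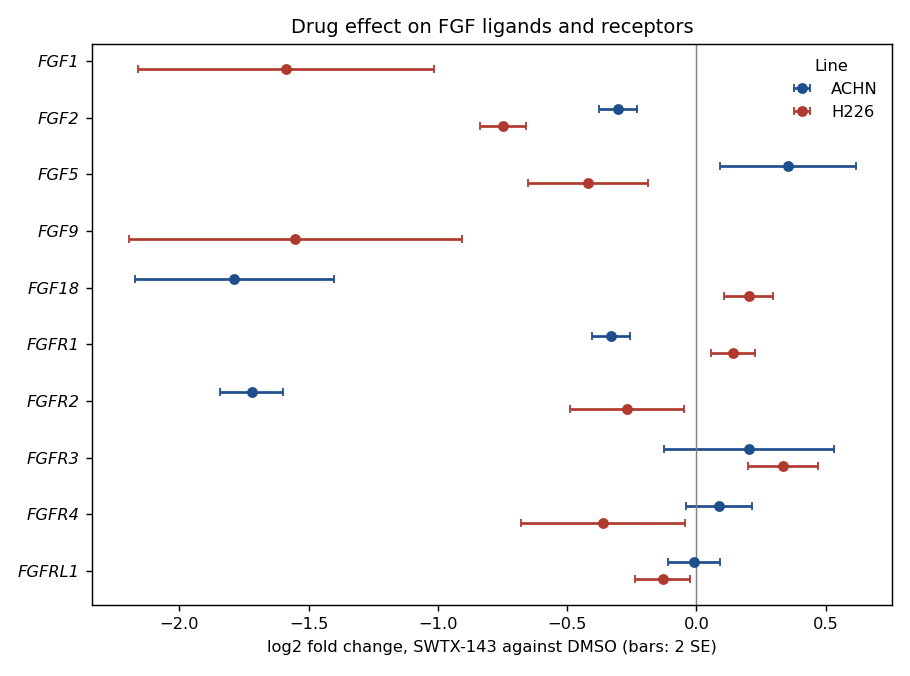
log2 fold change, SWTX-143 against DMSO, (horizontal axis) of the 7 members and of FGF5, FGF9 and FGF18 in ACHN (blue) and in H226 (red), with bars of 2 SE. FGFR2 stands at -1.72 in ACHN and FGF1 at -1.59 in H226, and FGFR1 lies on opposite sides of 0; FGF1 and FGF9 were not tested in ACHN and are drawn for H226 alone.

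At an edgeR adjusted p of 0.05 over all genes tested, 3 of the 6 members tested were past the threshold in ACHN (FGF2, FGFR1 and FGFR2, all lower) and 6 of 7 in H226 (FGF1, FGF2, FGFR2 and FGFRL1 lower, FGFR1 and FGFR3 higher). The H226 count was 4 of 7 under DESeq2 and under each other scaling, where FGFR2 and FGFRL1 were lost. Of all genes tested, 17.8% were past it in ACHN and 40.7% in H226; by direction, 8.43% were higher and 9.37% lower in ACHN, and 19% higher and 21.6% lower in H226. Nothing is read from these counts, because the members were chosen with these changes in view. The difference between the log2 fold changes (H226 minus ACHN) was 1.45 ± 0.13 for FGFR2, 0.47 ± 0.06 for FGFR1 and -0.45 ± 0.06 for FGF2. With few FGF1 counts in ACHN, the difference for FGF1 was -0.66 ± 0.51, an interval of -1.68 to 0.36. For this difference 4 of 7 members were past the threshold (FGFR1 and FGFR2 higher, FGF2 and FGFR4 lower), against 15.6% of all genes (5.89% higher, 9.7% lower). The FGFR4 value of -0.46 ± 0.16 lost its call in 14 of 18 alternatives and was -0.28 without H226 SWTX-143 replicate 1. Between the DMSO groups 6 of 7 differed (FGF2 did not pass), against 84.4% of all genes (42.2% higher in H226 and 42.2% lower).

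Levels of different genes were compared as CPM per kilobase of the longest annotated transcript. With DMSO the order in ACHN was FGFR1 (53.7), FGF2 (49.4), FGFRL1 (22.0), FGFR2 (19.5), FGFR4 (12.4), FGFR3 (1.18) and FGF1 (0.306). With SWTX-143, FGFR2 (5.94) dropped below FGFR4 (13.2), and the others kept their places. In H226 with DMSO the order was FGF2 (47.2), FGFR1 (37.0), FGFRL1 (26.1), FGFR3 (8.48), FGFR2 (3.59), FGFR4 (2.22) and FGF1 (0.753), and with SWTX-143 FGFR1 (41.6) came before FGF2 (28.7). No neighbours in these orders had overlapping library values in any group. The order depends on the length used: per kilobase of the median transcript, FGFR1 was first and FGF1 last in all groups, and FGFR4 stood above FGFR2 in all of them.

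Among the 4 kinase receptors, FGFR1 gave 61.9% ± 0.823 (SD, n = 3) of the length-scaled signal in DMSO-treated ACHN and FGFR2 22.5% ± 0.479. With SWTX-143 the FGFR2 share was 9.40% ± 0.687, while FGFR4 went from 14.3% ± 0.233 to 20.9% ± 0.772 of the total. In H226 FGFR1 gave 72.2% ± 0.958 with DMSO and 72.6% ± 0.957 with SWTX-143, and FGFR3 gave 16.5% ± 0.887 and 19.0% ± 0.715. Per median transcript length the FGFR2 share in ACHN was 6.66% with DMSO and 2.55% with SWTX-143. The sizes of these shares thus rest on the transcript lengths assumed. The FGFR2 share in ACHN falls under any lengths, because FGFR2 fell more than the other kinase receptors, so its direction is no separate result.

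**Figure D4:**
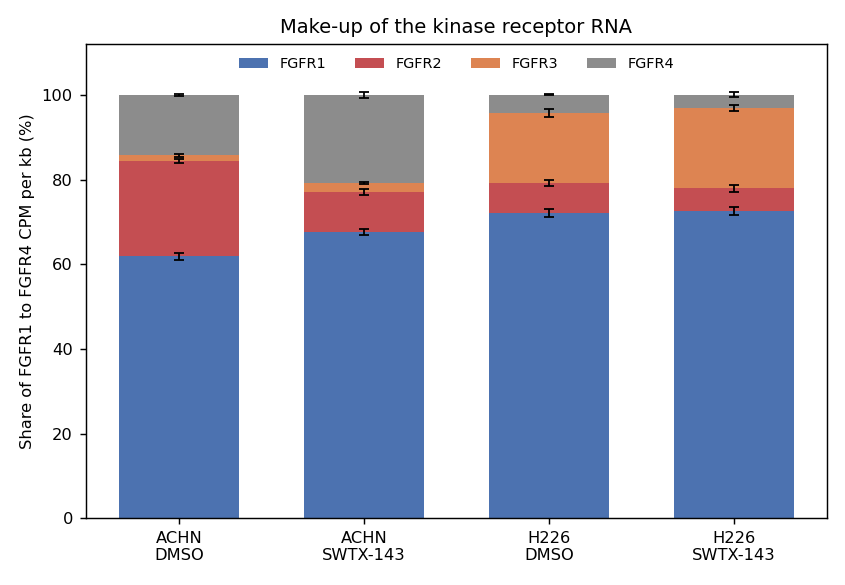
Share of the summed CPM per kilobase of FGFR1 to FGFR4 (longest transcript) by group, in percent, as stacked bars of the mean of 3 libraries, with the SD of each share at the top of its segment. FGFR2 shrinks from 22.5% to 9.40% in ACHN, and FGFR1 takes the largest share in every group.

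The other FGF genes had their own responses. Any count was found for 13 of the 20 other FGF genes listed, and only FGF5, FGF9, FGF11, FGF12 and FGF18 were tested in at least 1 line. The genes at 0 in all 12 libraries, 7 of the 20, were FGF3, FGF4, FGF6, FGF10, FGF16, FGF19 and FGF21, where a count of 0 allows up to 0.251 to 0.329 CPM per library (3 counts). The other 8 were too scarce to test: FGF14, an intracellular homologous factor, had 25 counts over the DMSO libraries and 30 over the SWTX-143 libraries of H226, and FGF20 had 14 and 9 in ACHN and 0 in H226. FGF7, FGF8, FGF13, FGF17, FGF22 and FGF23 had at most 7 counts in any group.

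FGF18, a secreted ligand with roles in skeletal and lung development, was in ACHN the ligand with the largest fold change. It was 6.52, 7.43 and 7.30 CPM with DMSO and 1.42, 2.33 and 2.43 CPM with SWTX-143. It fell 3.45-fold (log2 fold change -1.79 ± 0.19, edgeR adjusted p = 1.22e-10), with no overlap between the groups. In H226, where it was 117, 127 and 132 CPM with DMSO and 149.5, 147 and 144 CPM with SWTX-143, it rose by 0.20 ± 0.05 on the log2 scale (adjusted p = 0.000534). The difference between the lines was 1.98 ± 0.18 (adjusted p = 6.71e-15). With DMSO FGF18 was 17.7-fold higher in H226 than in ACHN. Its level there was 63.1 ± 3.91 CPM per kilobase of the longest transcript, against 47.2 ± 2.52 for FGF2, or 60.7 ± 3.24 for FGF2 per kilobase of its median transcript.

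FGF9, a ligand of mesothelium and of developing lung, fell in H226. It was 3.75, 4.47 and 1.87 CPM with DMSO and 0.701, 1.79 and 1.03 CPM with SWTX-143, a log2 fold change of -1.55 ± 0.32 (edgeR adjusted p = 0.000303). The highest treated library was only just below the lowest DMSO library. In ACHN each group of 3 libraries held 1 FGF9 count in all.

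FGF5, a ligand that ends hair growth, fell in H226 from 13.4, 16.4 and 15.7 CPM to 11.9, 9.58 and 13.1 CPM (log2 fold change -0.42 ± 0.12, edgeR adjusted p = 0.00273). Without H226 SWTX-143 replicate 2 this was -0.30 with an adjusted p of 0.0542. In ACHN it was 7.80, 6.51 and 6.87 CPM with DMSO and 9.36, 8.39 and 9.28 CPM with SWTX-143, a log2 fold change of 0.35 ± 0.13 that missed the threshold (adjusted p = 0.0546) and passed it without ACHN DMSO replicate 1 (0.43, adjusted p = 0.0409) or SWTX-143 replicate 2 (0.40, adjusted p = 0.0460). The difference between the lines was -0.78 ± 0.18 (adjusted p = 0.00059).

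FGF11 and FGF12 are intracellular homologous factors that do not signal through the classical receptors. FGF11 was 25.1 ± 1.41 and 23.4 ± 0.620 CPM in ACHN (edgeR adjusted p = 0.441). FGF12 rose in ACHN from 6.86 ± 0.983 to 8.98 ± 0.764 CPM, a log2 fold change of 0.38 ± 0.14 (adjusted p = 0.0414), a call that was lost under DESeq2, without DMSO replicate 1 (0.29) or 2 (0.37), and without SWTX-143 replicate 2 (0.38) or 3 (0.32).

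**Figure D5:**
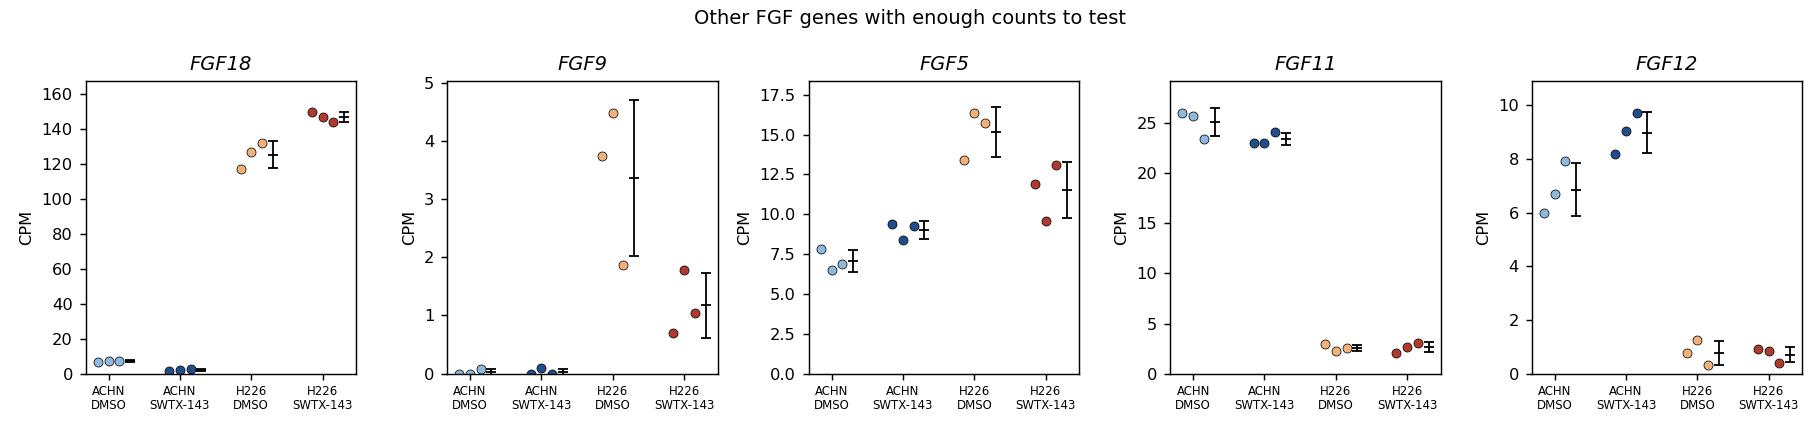
CPM of FGF5, FGF9, FGF11, FGF12 and FGF18 in every library, 1 panel per gene with its own axis starting at 0; points are libraries, and the mark beside them is the group mean with its SD (n = 3). FGF18 lies at 1.42 to 2.43 CPM in treated ACHN and at 117 CPM or more in every H226 library.

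Beyond ligands and receptors, 10 lists covered the rest of the pathway. Counting every pathway gene outside the 7 members, 20 of 82 tested were past the threshold in ACHN (24.4%, against 17.8% of all genes), 10 higher and 10 lower, with a median log2 fold change of 0.01 against 0.00 for all genes. In H226 38 of 81 were past it (46.9%, against 40.7%), 19 higher and 19 lower, with the same 2 medians (0.01 and 0.00). Under upper-quartile scaling the ACHN split was 15 higher and 8 lower, and the H226 split 26 higher and 18 lower. For the difference between the lines, 17 of 87 were past it (19.5%, against 15.6% of all genes), 7 higher and 10 lower in H226, or 8 and 6 under upper-quartile scaling.

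Genes that build heparan sulfate included large falls in both lines. EXT1, which lengthens the chain, fell from 245 ± 1.49 to 174 ± 11.4 CPM in ACHN (log2 fold change -0.50 ± 0.04, edgeR adjusted p = 2.23e-14) and from 181 ± 6.33 to 126 ± 3.54 CPM in H226 (-0.56 ± 0.05, 4.14e-15). NDST1, which starts its sulfation, was 355, 352 and 364 CPM with DMSO and 239, 242 and 214 CPM with SWTX-143 in ACHN, a fall of 0.63 ± 0.04 (edgeR adjusted p = 1.19e-18). In H226 NDST1 was 308, 319 and 311 CPM and then 187, 172 and 192 CPM, a fall of 0.79 ± 0.04 (adjusted p = 6.96e-22). HS6ST1, which adds sulfate to the chain, fell in H226 from 37.3 ± 1.17 to 27.5 ± 1.44 CPM (-0.47 ± 0.07, adjusted p = 4.71e-07), and was -0.22 ± 0.09 in ACHN (adjusted p = 0.0938). Of the 14 genes of the list tested in each line, 1 rose and 2 fell in ACHN (21.4%, against 17.8% of all genes). In H226 2 rose and 4 fell (42.9%, against 40.7% of all genes). The median log2 fold change of the list was -0.005 in ACHN and 0.009 in H226, so the falls named here were not shared by the list. HS3ST1 was the gene that rose in ACHN (0.55 ± 0.19, adjusted p = 0.0301), at 3.75 ± 1.24 and 5.54 ± 0.459 CPM, a call lost under DESeq2 and without DMSO replicate 2 (0.31), SWTX-143 replicate 2 (0.51) or SWTX-143 replicate 3 (0.52).

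The proteoglycans that carry heparan sulfate moved one by one. SDC2 was 234, 234 and 235 CPM with DMSO and 134, 141 and 131 CPM with SWTX-143 in ACHN, and 40.7, 44.5 and 41.8 against 19.6, 23.1 and 20.3 CPM in H226. It fell by 0.80 ± 0.04 in ACHN (edgeR adjusted p = 9.35e-23) and by 1.04 ± 0.08 in H226 (6.89e-17), with wide gaps between the groups. SDC1, the syndecan of epithelia, fell by 0.54 ± 0.05 in H226 (adjusted p = 1.91e-14) and was -0.07 ± 0.04 in ACHN (0.232). SDC4, a syndecan of focal adhesions, fell by 0.17 ± 0.04 in ACHN (0.00171) and rose by 0.20 ± 0.04 in H226 (7.89e-05). SDC3 rose by 0.26 ± 0.05 in ACHN (4.33e-05). HSPG2, the basement membrane proteoglycan perlecan, fell by 0.26 ± 0.04 in ACHN (7.99e-07), but in the fit of all 12 libraries this was -0.25 with an adjusted p of 0.320. In all, 2 rose and 3 fell of 10 proteoglycans tested in ACHN (50%, against 17.8% of all genes). In H226 3 rose and 2 fell of 9 (55.6%, against 40.7% of all genes).

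Adaptors and the ERK cascade had small changes. PTPN11, the phosphatase SHP2 that carries the signal from FRS2, fell by 0.14 ± 0.04 in ACHN (edgeR adjusted p = 0.00378) and by 0.25 ± 0.04 in H226 (1.29e-06). In H226, PIK3R1, a regulatory subunit of PI3-kinase, rose by 0.39 ± 0.10 (0.00136). MAP2K1, the kinase that activates ERK, fell there by 0.30 ± 0.06 (2.22e-05), and MAPK3, which encodes ERK1, rose by 0.27 ± 0.06 (7.68e-05). In ACHN 1 of 13 adaptors rose and 1 fell (15.4%), and 1 of 10 cascade genes fell (10%), against 17.8% of all genes. The adaptor that rose there was SOS2, a call lost in 7 of 13 alternatives. The cascade gene that fell there was HRAS, a call lost in 6 of 13. In H226 4 adaptors rose and 2 fell (46.2%), and 2 cascade genes rose and 2 fell (40%), against 40.7% of all genes.

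Among inhibitors that FGF signalling raises, 1 of 9 tested was past the threshold in ACHN (11.1%, against 17.8% of all genes) and 3 of 10 in H226 (30%, against 40.7%), all higher. SPRY4, a Sprouty inhibitor, was 10.4, 10.7 and 10.9 CPM with DMSO and 17.5, 19.3 and 22.0 CPM with SWTX-143 in H226, a rise of 0.86 ± 0.11 (edgeR adjusted p = 2.47e-09); in ACHN it was 0.35 ± 0.18 (0.183). SPRED3 rose by 0.67 ± 0.15 in H226 (0.000158), and SPRED2 by 0.26 ± 0.06 in ACHN (0.000506). SPRY2 also passed in H226 (0.41 ± 0.17, 0.0495), and was lost under DESeq2, with no filter on low counts and without any 1 of 5 of the 6 libraries (0.29 to 0.45). DUSP6, the ERK phosphatase often used as a readout of FGF signalling, was 19.9 ± 0.710 and 19.7 ± 1.80 CPM in ACHN and 1.17 ± 0.319 and 1.5 ± 0.582 CPM in H226, and did not pass in either line. SPRY2 in ACHN (14.4 ± 0.506 and 12.8 ± 0.852 CPM) and DUSP5 in H226 (2.42 ± 0.440 and 1.86 ± 0.316 CPM) had lower means with SWTX-143 and did not pass.

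Transcriptional output of FGF and ERK had 3 genes higher and 1 lower of 10 tested in ACHN (40%, against 17.8% of all genes). In H226 1 was higher and 4 were lower of 9 (55.6%, against 40.7% of all genes). The medians were 0.12 in ACHN and -0.17 in H226. In ACHN the ETS factors ETV1 (0.53 ± 0.12, edgeR adjusted p = 0.00054) and ETV5 (0.25 ± 0.07, 0.00455) and the immediate early gene EGR1 (0.37 ± 0.07, 0.000125) rose. FOSL1, an AP-1 subunit, fell in both lines, by 0.40 ± 0.04 in ACHN (1.35e-10) and by 0.66 ± 0.09 in H226 (1.01e-05). In H226, IER3 fell from 32.8 ± 1.46 to 18.2 ± 2.10 CPM (-0.88 ± 0.09, 8.38e-13). CCND1, the G1 cyclin D1, fell there from 352 ± 0.809 to 243 ± 2.39 CPM (-0.56 ± 0.04, 2.97e-17), and MYC fell by 0.45 ± 0.05 (1.52e-10). In ACHN, IER3 was -0.01 ± 0.08 (0.950), CCND1 -0.04 ± 0.04 (0.556) and MYC -0.06 ± 0.05 (0.407). Several of these genes answer to many pathways besides FGF.

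Regulators of FGFR exon choice included ESRP2, an epithelial splicing factor, which fell in H226 from 74.5 ± 2.94 to 52.5 ± 2.17 CPM (log2 fold change -0.53 ± 0.06, edgeR adjusted p = 4.81e-11) and was -0.14 ± 0.14 in ACHN (0.566). PTBP1, a splicing repressor, fell in H226 by 0.32 ± 0.04 (3.52e-09). Of 4 tested, 1 fell in ACHN (PTBP1, -0.11 ± 0.04, 0.026, lost in 7 of 13 alternatives), or 25%, against 17.8% of all genes. In H226 1 rose and 3 fell of 4 (100%, against 40.7% of all genes). The fall of HNRNPA1, a further splicing regulator, was lost under DESeq2 (adjusted p = 0.0557). It was also lost without H226 SWTX-143 replicate 1 (-0.22, edgeR adjusted p = 0.0649). Among membrane co-regulators L1CAM, an adhesion molecule, rose in H226 by 0.46 ± 0.04 (7.31e-14). It was the single call of 4 tested there (25%, against 40.7%), and none of 3 was past the threshold in ACHN (against 17.8%). KL, the co-receptor alpha-Klotho, rose in ACHN from 53.3 ± 2.99 to 60.7 ± 1.54 CPM (0.19 ± 0.06, adjusted p = 0.0155), a call lost under DESeq2 and without ACHN DMSO replicate 3 (0.15) or SWTX-143 replicate 3 (0.18).

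The genes whose pattern was most like a member's were found by Pearson's correlation of log2(CPM + 0.5) over the 12 libraries among 13903 genes, as a description; the points share their lines, so a difference between lines alone gives a high value. For FGFR2 they were EDN2 (0.973), ADAMTS6 (0.968) and PIM3 (0.967). EDN2, the peptide endothelin 2, was 67.0 ± 6.45 and 15.6 ± 0.797 CPM in ACHN and 5.26 ± 1.503 and 6.40 ± 0.522 CPM in H226. For FGF1 they were PAK1IP1 (0.973), HSPA8 (0.962) and NAA50 (0.962), whose levels in H226 were -0.53 ± 0.07, -0.37 ± 0.04 and -0.35 ± 0.04 on the log2 scale, smaller changes than that of FGF1. For FGF2 they were NUDT6 (0.994), SYNCRIP (0.979) and MRTO4 (0.974).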

How the data were processed

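Poly(A) RNA of 12 libraries (2 lines, DMSO or 100 nM SWTX-143, 3 replicates each) was sequenced. The submitters' processing notes name the tools STAR 2.6.1d, cutadapt and FastQC, and hg19 as the build, without giving their settings. The values are raw read counts per gene as deposited by the authors, 1 table per line. Sources used here do not name the counting program, its strand setting or its treatment of multi-mapping reads.

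Counts were scaled by TMM over all 12 libraries to print CPM. Each line was fitted alone with edgeR 4.0.16 (R 4.3.3; filterByExpr, TMM, robust quasi-likelihood test, Benjamini-Hochberg adjustment over all genes tested, threshold 0.05). The difference between lines and the DMSO lines were tested in 1 fit of 12 libraries. Fold changes carry ± SE, and intervals span 2 SE. The fit was tested on simulated data. Alternatives were DESeq2 1.42.0, other scalings, no filter, a joint fit, a replicate block and leaving out each library.

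Named were the members, other FGF genes with a count, up to 3 genes of smallest p per pathway list and line, overlapping genes and the 3 genes most like FGFR2, FGF1 and FGF2. DUSP6, DUSP5, ETV5, other genes named for levels in the closing section and NF2 were added after their values were seen. The members and lists were chosen with earlier results of these data known. Exon overlaps and transcript lengths came from GENCODE 29 and promoter sequences from RefSeq (GRCh38), with 6 of 7 members matched in the promoter table and 7 of 7 in GENCODE.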

Additional observations from a re-analysis of the deposited data

Results flagged for a closer look

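A difference in drug response between the lines (H226 minus ACHN, log2) was tested for 45 named genes outside the members. At an edgeR adjusted p below 0.05, 14 of the 45 passed, against 15.6% of all genes. Most of the 45 were named for a small p-value of SWTX-143 against DMSO in these same libraries, which favours a difference between the lines. Nothing is therefore read from this count. The log2 fold change was lower in H226 than in ACHN for IER3 (-0.87 ± 0.12, adjusted p = 8.09e-09) and FGF5 (-0.78 ± 0.18, 0.00059). The same held for CCND1 (-0.53 ± 0.06, 1.03e-11), SDC1 (-0.47 ± 0.06, 9.88e-09), MYC (-0.39 ± 0.07, 8.72e-06) and PTBP1 (-0.22 ± 0.06, 0.00317). Lower here means a more negative change, such as the falls of IER3, CCND1 and MYC in H226. The log2 fold change was higher in H226 for FGF18 (1.98 ± 0.18, 6.71e-15), L1CAM (0.52 ± 0.06, 1.07e-11) and SDC4 (0.36 ± 0.06, 2.84e-06). The other 5 passed near the threshold and were lost in 9 to 16 of 18 alternatives: ESRP2 (-0.40 ± 0.15, 0.0482), FOSL1 (-0.26 ± 0.09, 0.0486), SDC2 (-0.24 ± 0.09, 0.0366), NDST1 (-0.17 ± 0.06, 0.0403) and SPRY2 (0.57 ± 0.20, 0.0374). PTBP1 was lost in 2 of 18.

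Among the members, every FGFR1 library was lower with SWTX-143 in ACHN (-0.33) and higher in H226 (0.14). Every FGFR4 library was higher in ACHN (0.089) and lower in H226 (-0.36), but FGFR4 did not pass the threshold in either line. How many of all genes separate in this way was not counted, so nothing is read from the separation. The difference between the lines (H226 minus ACHN) was 0.47 ± 0.06 for FGFR1 and -0.46 ± 0.16 for FGFR4, given as a description since their response was known when they were chosen. With 1 library left out, the FGFR4 difference ranged from -0.57 to -0.28 and lost its call in most of these fits.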

How the results depend on the processing

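The number of genes past the threshold in ACHN was 2401, and 1473 under DESeq2. In H226 it was 5486 (3896 under DESeq2). Leaving out 1 library at a time gave 1841 to 2174 genes in ACHN, 4753 to 5365 in H226, 1780 to 2253 for the difference between the lines and 12180 to 12546 for the DMSO lines. Pathway genes past the threshold ranged from 14 to 23 in ACHN and from 31 to 39 in H226 in these fits. For the difference they were 17, and 11 to 16 with 1 library left out, with 11 without H226 DMSO replicate 3. The split of calls moved with scaling, from 1137 higher and 1264 lower to 1450 and 1028 in ACHN, from 2567 and 2919 to 3283 and 2324 in H226, and from 863 and 1423 to 1159 and 1045 for the difference, under upper-quartile scaling. Whether the replicate numbers pair the samples is not known. Correlations of same-numbered libraries were -0.14 to -0.04 in ACHN and -0.04 to 0.14 in H226. Those of differently numbered libraries were -0.04 to 0.15 and -0.22 to 0.13. With 3 libraries per group these values cannot decide it. With the replicate block, 2146 genes passed in ACHN, 5744 in H226, 2378 for the difference and 12399 for the DMSO lines, and 18, 38, 17 and 80 pathway genes. FGFR2 in ACHN ranged from -1.76 to -1.67, FGF1 in H226 from -1.78 to -1.41 and FGF2 in H226 from -0.79 to -0.71 with 1 library left out. PTBP1 between the DMSO lines turned to -0.12 with library size alone; the cause was not tested. Of 130 results for named genes outside the members, 96 kept their side of the threshold in every alternative, 34 did not and 0 reversed, leaving aside the DMSO lines. FGF1 rests on 8 to 35 counts per H226 library, which limits its precision.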

Other observations

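With DMSO, 80 of 87 tested genes of the pathway around the receptors were past the threshold between the lines (edgeR, 92%). Of all genes, 84.4% were past it, so a high count is not particular to the pathway. KL was 53.3 ± 2.99 CPM (SD, n = 3) in ACHN and had no count in any H226 library, where 3 counts would be 0.281 to 0.329 CPM. FGFBP1, a secreted carrier that frees FGFs from the matrix, was 0.332 ± 0.193 CPM in ACHN and 32.7 ± 2.02 CPM in H226. SULF1, which trims sulfate from heparan sulfate, had no count in ACHN (3 counts would be 0.251 to 0.28 CPM per library) and was 22.8 ± 1.80 CPM in H226, and the adhesion protein FLRT2 was 0.029 ± 0.0502 and 46.6 ± 2.82 CPM. ERK feedback genes also differed: DUSP6 was 19.9 ± 0.710 CPM in ACHN and 1.17 ± 0.319 CPM in H226 (log2 difference -4.09 ± 0.18, edgeR adjusted p = 2.41e-36), and DUSP5 differed by -3.38 ± 0.14 (5.25e-38). DUSP4 went the other way, at 0.031 ± 0.0537 CPM in ACHN and 7.99 ± 1.35 CPM in H226. SPRY4 was 1.46 ± 0.15 higher in H226 on the log2 scale (1.28e-14), and SPRY2 was -1.71 ± 0.14 (7.42e-20). These compare 1 line of each tumour type.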
